A study of Homo sapiens with 9 samples.

Results

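The binding sites of FLAG-tagged ETV1 were set against those of endogenous GABPA in RWPE-1 cells. The 2 peak lists, the largest of the series, were taken whole and held 16806 of the 27416 regions in all 6 lists. Of these, 8258 ETV1 and 7592 GABPA regions did not overlap the other list, and 478 of each did. RWPE-1 is an immortalised, non-tumorigenic epithelial line of the human prostate. For ETV1, the cells carried a retroviral FLAG-ETV1 construct and chromatin was precipitated with an antibody against FLAG. For GABPA, cells without retroviral expression were used, with an antibody against GABPA itself. Both kinds of cells were grown as their supplier recommends. Whether the FLAG-ETV1 cells were a pool or 1 clone is not given in the sources used here. Factor, construct and antibody changed together and cannot be told apart. Each factor had 1 library, and a spread between replicates can therefore not be given. Intervals below are 95% and cover counting error only.

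The other 4 lists serve as reference. They are FLAG-ERG (RWPE-1 with a retroviral FLAG-ERG construct, FLAG antibody), ETS1 (endogenous, RWPE-1), and ETV4 and JUND, both endogenous proteins of PC3, a prostate carcinoma line. Each of these lists is shorter than the ETV1 and GABPA lists. A peak here is a called region in the human build hg18. The median width was 484 bp for ETV1 and 473 bp for GABPA, and 4.20% of the GABPA peaks but 1.19% of the ETV1 peaks were under 300 bp. Read depth is unknown. The lists carry no expression values, so the identity of the line was not checked here.

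ETV1 and GABPA belong to the ETS family, whose members share a DNA-binding domain that reads a GGAA core. GABPA pairs with a GABPB subunit and is known for promoters of widely expressed genes, many of them for mitochondria and ribosomes. ETV1 belongs to the PEA3 group with ETV4 and ETV5. It is low in normal prostate epithelium and is switched on in some prostate cancers by chromosomal rearrangement. ERG is the ETS gene most often rearranged in that cancer, ETS1 is a broadly expressed relative that responds to MAP kinase signalling, and JUND is a subunit of AP-1, which can bind beside ETS proteins at enhancers.

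The called regions of ETV1 and GABPA were largely separate. Of the ETV1 peaks, 478 overlapped a GABPA peak by at least 1 bp, which was 5.47% of the list (Wilson interval 5.01 to 5.97%). The same number of GABPA peaks, 478 or 5.92% of that list (5.43 to 6.46%), overlapped an ETV1 peak. The other peaks of each list are called specific below. This word concerns the pair only, since a specific peak may overlap any of the other lists. Shared peaks were a little wider than specific ones, with medians of 490 and 483 bp for ETV1 and of 484 and 473 bp for GABPA. Neither factor has a repeat list, so how far lists of the same factor would overlap is not known.

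Where the pair overlapped, the peaks tended to be centred on each other. The median distance between their midpoints was 130 bp (quartiles 50.5 and 254 bp), and 41.4% of the shared pairs lay within 100 bp (37.1 to 45.9%). At least 50% of the length of both peaks was covered in 70.5% of the shared pairs (66.3 to 74.4%). The GABPA midpoint had the higher coordinate in 242 of the 478 pairs, 50.6% (46.2 to 55.1%), so neither side was preferred beyond counting error. ETV1 and FLAG-ERG midpoints, over 720 overlapping ETV1 peaks, were 121 bp apart at the median (quartiles 58.5 and 213 bp), and ETV1 and ETS1 midpoints 119.5 bp (46.75 and 241.5 bp). The quartile ranges of these 3 pairs overlapped widely.

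The difference between the partners of ETV1 lay in how often a neighbouring peak was also an overlapping one. Among ETV1-specific peaks, 1244 had a GABPA peak within 10 kb, measured edge to edge, which was 15.1% of them (14.3 to 15.8%). Such neighbours without overlap are called near misses. Of all ETV1 peaks with a GABPA peak within 10 kb, 27.8% overlapped it (25.7 to 29.9%). The corresponding value was 57.9% with FLAG-ERG (55.2 to 60.6%), 43.3% with ETS1 (40.1 to 46.7%), 43.4% with ETV4 (39.4 to 47.4%) and 38.9% with JUND (35.1 to 42.8%). GABPA was thus the lowest of the 5 partners of ETV1, with an interval apart from the other 4. The GABPA list is also the longest of the 5. List length can add overlaps and near misses in unequal measure, and its part in this share was not tested.

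Seen from GABPA, ETV1 came below the other RWPE-1 factors and above the PC3 lists. Of the GABPA peaks with an ETV1 peak within 10 kb, 27.8% overlapped it (25.7 to 29.9%), against 35.0% with FLAG-ERG (31.5 to 38.8%) and 33.5% with ETS1 (29.9 to 37.3%). The interval for ETS1 meets that for ETV1 at its edge. Against the PC3 lists the values were lower still, 14.4% with ETV4 (10.9 to 18.8%) and 9.64% with JUND (7.02 to 13.1%). GABPA peaks therefore came near JUND peaks 328 times without overlap and overlapped them 35 times, while ETV1 peaks did so 373 and 237 times. The ETV1 list is the longest of the lists set against GABPA here. As on the ETV1 side, list length can add overlaps and near misses in unequal measure. Its part in the order of these shares was not tested.

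**Figure D1:**
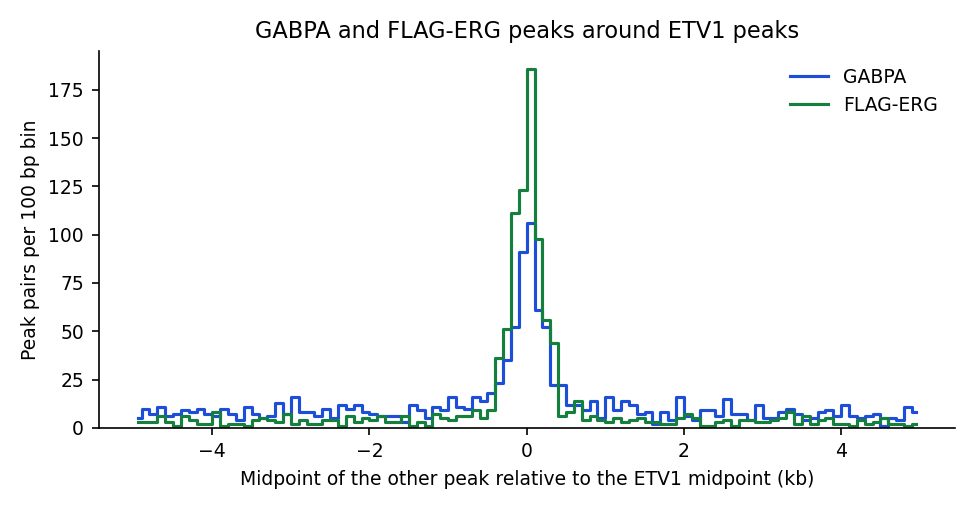
Number of peak pairs per 100 bp bin (vertical axis) by the position of the GABPA (blue) or FLAG-ERG (green) midpoint relative to the ETV1 midpoint (horizontal axis, kb). GABPA pairs averaged 98.5 per bin within 100 bp of the ETV1 midpoint and 7.90 per bin between 1 and 5 kb, FLAG-ERG pairs 154.5 and 3.44, so the FLAG-ERG peak stands higher over a lower flank.

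In the profile of midpoints around ETV1 peaks, GABPA pairs were 12.5 times as frequent per bin at the centre as at 1 to 5 kb, and FLAG-ERG pairs 44.95 times. The GABPA list is longer than the FLAG-ERG list, which can add pairs at the centre and in the flank. The part of list length in these ratios was not tested. Per 1000 peaks of the partner list, near misses of ETV1 numbered 154.2 for GABPA and 226 for FLAG-ERG, and overlapping ETV1 peaks 59.2 and 311.1, so per peak FLAG-ERG exceeded GABPA in both and by more in overlaps. Near misses thinned out with distance but did not end at a fixed one. They numbered 260 per kb of gap below 200 bp (52 peaks), 210 per kb between 200 and 500 bp, 196 per kb between 500 and 1000 bp, and 137 per kb between 1 and 2 kb. Between 9 and 10 kb there were 85 per kb. The smallest gap within a list was 505 bp for GABPA and 512 bp for ETV1. It was 516 bp for JUND, 557 bp for ETV4, 662 bp for ETS1 and 784 bp for FLAG-ERG. The 115 ETV1 peaks with a GABPA peak less than 500 bp away thus sat at spacings absent within every list. Whether the calling of regions set this lower limit was not tested, so it is not read as a feature of binding.

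The 5 closest near misses were separated by 10 to 21 bp. The closest lay on chromosome 20, with ETV1 at 7785093 to 7785592 and GABPA at 7785603 to 7786081, a gap of 10 bp. The next lay on chromosome 6, ETV1 at 33493373 to 33493793 and GABPA at 33493805 to 33494297, 11 bp apart. On chromosome 1 the ETV1 peak at 201509025 to 201509485 followed a GABPA peak at 201508508 to 201509007 after 17 bp. The other two were on chromosome 5 (ETV1 at 156502551 to 156503016, gap 18 bp) and chromosome 22 (ETV1 at 38254893 to 38255391, gap 21 bp). These pairs count as specific under the rule although the peaks nearly touch. No GABPA peak lay within 100 kb of 39.3% of the ETV1 peaks (38.3 to 40.4%). The reverse held for 31.4% of GABPA peaks (30.4 to 32.4%).

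Shared peaks were also those most often bound by the other RWPE-1 factors. FLAG-ERG overlapped 8.24% of all ETV1 peaks and 2.79% of all GABPA peaks. It overlapped 25.3% of the shared peaks of the ETV1 list (21.6 to 29.4%), 7.25% of the ETV1-specific peaks (6.71 to 7.83%) and 1.44% of the GABPA-specific peaks (1.19 to 1.73%). For ETS1 the background was 4.25% of all ETV1 and 2.57% of all GABPA peaks. ETS1 overlapped 18.2% of the shared ETV1 peaks (15 to 21.9%), 3.44% of the ETV1-specific (3.07 to 3.85%) and 1.61% of the GABPA-specific peaks (1.35 to 1.92%). A shared ETV1 peak was therefore 3.49 times as often a FLAG-ERG peak as an ETV1-specific one (2.94 to 4.15), and a shared GABPA peak 16.9 times as often as a GABPA-specific one (13.2 to 21.6). For ETS1 these ratios were 5.29 (4.24 to 6.61) and 11.1 (8.52 to 14.4).

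The PC3 lists gave another picture. ETV4, the PEA3 relative of ETV1, overlapped 2.87% of all ETV1 and 0.545% of all GABPA peaks. The share was 2.87% among ETV1-specific peaks (2.53 to 3.25%) and 2.93% among shared ones (1.75 to 4.86%), a ratio of 1.02 with an interval of 0.600 to 1.74. It was 0.395% among GABPA-specific peaks (0.277 to 0.564%). Overlap with ETV4 thus went with the presence of ETV1, and a difference between ETV1 peaks with and without GABPA was not detectable at these counts.

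JUND, the AP-1 subunit, overlapped 2.71% of all ETV1 and 0.434% of all GABPA peaks. It overlapped 2.81% of the ETV1-specific peaks (232 peaks, 2.47 to 3.19%), 1.05% of the shared ones (5 peaks, 0.448 to 2.42%) and 0.408% of the GABPA-specific ones (31 peaks, 0.288 to 0.579%). JUND was the only one of the 4 lists in which shared ETV1 peaks had a lower share than ETV1-specific peaks, with a ratio of 0.372 (0.154 to 0.899). That ratio rests on 5 peaks, and its interval reached past 1 under a reciprocal overlap of 50% (0.409, 0.131 to 1.27) and without the first 20% of the GABPA rows (0.484, 0.182 to 1.29). Taken from the JUND side, 232 JUND peaks (7.80% of that list) overlapped ETV1 only, 30 (1.01%) GABPA only and 5 (0.168%) both. The other 2706 (91.0%) overlapped neither.

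**Figure D2:**
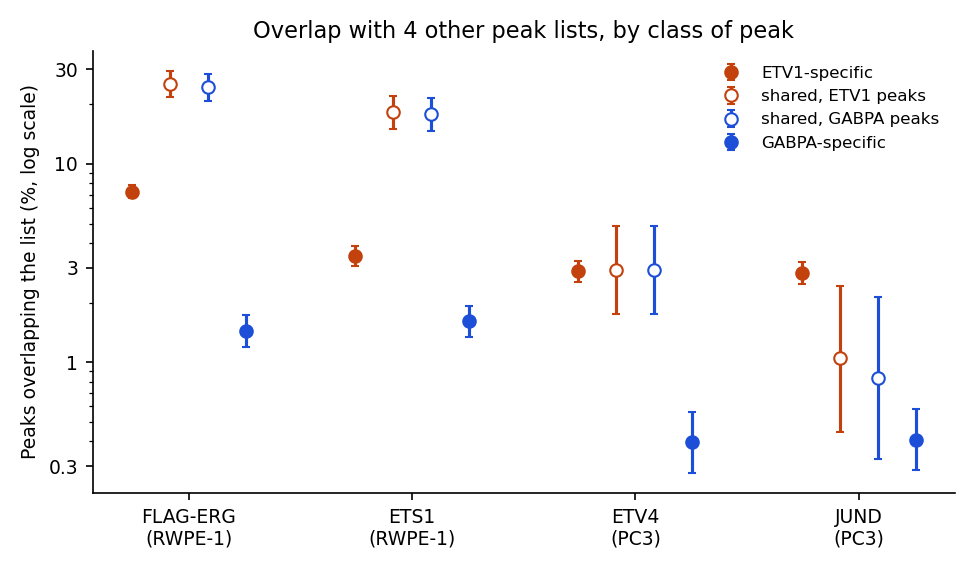
Percent of peaks (vertical axis, log scale) that overlap each of 4 other lists (horizontal axis), for ETV1-specific (filled red), shared (open symbols, counted in either list) and GABPA-specific peaks (filled blue); bars are Wilson 95% intervals. Shared peaks stand highest for FLAG-ERG and ETS1, match the ETV1-specific peaks for ETV4 at 2.93 and 2.87%, and lie below them for JUND at 1.05 and 2.81%.

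Set directly against each other, ETV1-specific peaks exceeded GABPA-specific peaks in all 4 overlaps. The ratio of the shares was 5.05 for FLAG-ERG (4.13 to 6.18), 2.14 for ETS1 (1.74 to 2.64), 7.26 for ETV4 (4.97 to 10.6) and 6.88 for JUND (4.74 to 9.996). With a gap of up to 500 bp counted as shared, the ratio for JUND was 4.16 (3.11 to 5.56). The smallest ratio was that of ETS1, the one endogenous ETS factor of the same line, and its interval lay apart from those of the other 3. FLAG-ERG was precipitated with the same antibody as ETV1, and what part of its ratio goes with that antibody was not tested. The lists carry no score, so peaks of matched strength could not be compared. They also differed in short regions, with 4.20% of GABPA and 1.19% of ETV1 peaks under 300 bp. What part of the 4 ratios goes with the make-up of the lists was not tested. Any of the 4 lists overlapped 12.4% of the ETV1-specific peaks (11.7 to 13.2%), 3.504% of the GABPA-specific peaks (3.11 to 3.94%) and 37.7% of the shared ETV1 peaks (33.4 to 42.1%). Of the shared ETV1 peaks, 298 overlapped none of the 4.

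Merged with whatever other peaks they touched, the shared peaks formed 478 regions, of which 296 held ETV1 and GABPA alone, 138 held 3 factors, 41 held 4 and 3 held 5. The regions with 5 factors were chromosome 1, 59087134 to 59087784, without ETS1, and chromosome 3, 130362603 to 130363190, and chromosome 5, 40870884 to 40871528, both without JUND. Of the 41 regions with 4 factors, the first by position were chromosome 1, 154452664 to 154453386, with FLAG-ERG and ETS1, and chromosome 2, 10509611 to 10510455, with FLAG-ERG and ETV4. FLAG-ERG was present in all 3 regions with 5 factors, in 39 of the 41 with 4 and in 79 of the 138 with 3. It overlapped 25.3% of all shared ETV1 peaks. Regions with more factors hold more of the other lists by definition, so this rise is not read as a result about FLAG-ERG.

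GABPA peaks were the more clustered. A neighbour of the same list lay within 10 kb for 18.7% of GABPA peaks (17.9 to 19.6%) and for 15.2% of ETV1 peaks (14.5 to 16%), although the ETV1 list is the larger. The median distance to the nearest peak of the same list was 45.5 kb for GABPA and 57.8 kb for ETV1. At 1 kb the shares were 0.991% (0.797 to 1.23%) and 0.801% (0.635 to 1.01%), whose intervals overlap, and at 100 kb 68.3% (67.3 to 69.4%) and 63.7% (62.7 to 64.7%). Shared peaks differed little from the rest in this respect. Within 10 kb of a peak of their own list lay 17.99% of the shared ETV1 peaks (14.8 to 21.7%) and 15.1% of the specific ones (14.3 to 15.8%), and 15.7% (12.7 to 19.2%) and 18.9% (18.02 to 19.8%) for GABPA.

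**Figure D3:**
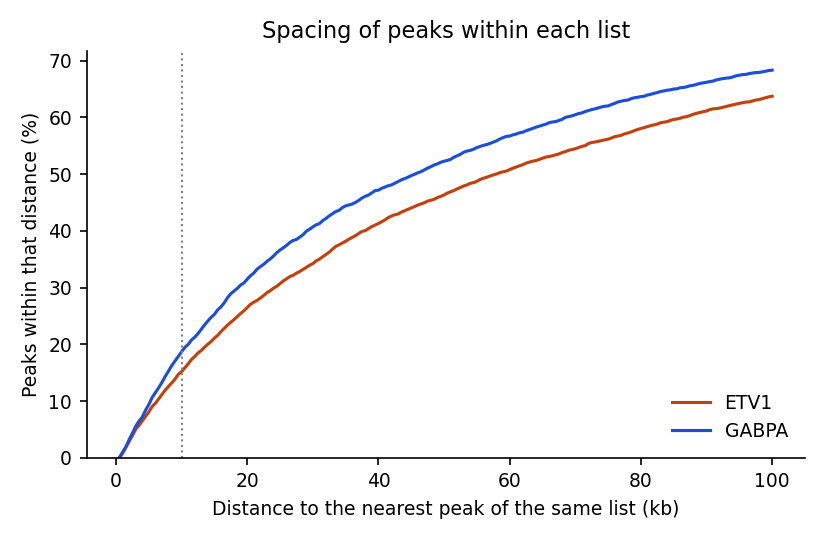
Percent of peaks (vertical axis) whose nearest peak of the same list lies within a given distance (horizontal axis, kb), for ETV1 (red) and GABPA (blue); the dotted line marks 10 kb. The curves run together over the first few kb and then separate, reaching 63.7% for ETV1 and 68.3% for GABPA at 100 kb.

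Linked by gaps of up to 10 kb, the ETV1 peaks formed 602 chains of at least 2 peaks and 95 of at least 3, and the GABPA peaks 680 and 104. Of the chains of at least 3, 39 of the 95 ETV1 chains and 29 of the 104 GABPA chains held a peak of the other factor. Over loci of any size, single peaks included, 6.94% of ETV1 and 7.69% of GABPA loci overlapped a locus of the other list. A chain covers a longer stretch than a single peak, so these counts are not read as a trait of chains. The ETV1 chain with the most peaks had 6 over 27.9 kb of chromosome 20 (29747428 to 29775344). It held 3 FLAG-ERG, 3 ETS1, 3 ETV4 and 1 JUND peak but no GABPA peak. ETV1 chains of 5 peaks lay on chromosome 5 (134397199 to 134408014, 1 GABPA peak inside), chromosome 6 (34299796 to 34320381, 1 GABPA peak), chromosome 9 (135704569 to 135737245, 2 GABPA peaks) and chromosome 19 (5628972 to 5648046, 0 GABPA peaks).

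The 2 GABPA chains with the most peaks had 7 each. One spanned 45.1 kb of chromosome 8 (143622411 to 143667532) and held no peak of any other list. The other, on chromosome 20 (60831013 to 60866685), held 2 ETV1 peaks and 1 each of FLAG-ERG, ETV4 and JUND. Chains of 6 peaks lay on chromosome 8 (144670988 to 144692042) and chromosome 9 (126077870 to 126101835 and 136732664 to 136752230), with 1 ETV1 peak in the chain that starts at 126077870 and 0 in the other two. Of these 5 GABPA chains 3 were empty of the other factors, whereas each of the 5 ETV1 chains named above held at least 1 peak of another list.

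By chromosome and within the pair, ETV1 leaned to chromosomes 1, 10 and 4 and GABPA to chromosomes 22, 21, 18 and 19. On chromosome 1 lay 11.6% of the ETV1 list (11.0 to 12.3%) and 8.70% of the GABPA list (8.10 to 9.33%), a ratio of 1.34 (1.22 to 1.47). The ratio was 1.29 on chromosome 10 (1.15 to 1.45) and 1.26 on chromosome 4 (1.05 to 1.51). On chromosome 22 lay 1.02% of the ETV1 list (0.829 to 1.252%) and 1.72% of the GABPA list (1.46 to 2.03%), the lowest ratio, 0.591 (0.454 to 0.770). Chromosome 21 followed with 0.670 (0.524 to 0.856), chromosome 18 with 0.689 (0.521 to 0.911) and the gene-dense chromosome 19 with 0.739 (0.644 to 0.849). On chromosome 1, FLAG-ERG and ETS1 both held larger shares of their lists than ETV1, 14.4% for ETS1. JUND had 10.6% there and ETV4 7.67%. On chromosome 19, ETS1 had 8.07%, above GABPA, while FLAG-ERG (4.235%), JUND (2.32%) and ETV4 (2.07%) lay below it. On chromosome 22 all the reference lists lay below GABPA, from 0.173% for FLAG-ERG to 1.31% for JUND.

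One list's share exceeded the other's by at least 25% on 7 of 23 chromosomes, with ETV1 higher on 3 (13%) and GABPA on 4 (17.4%), and with Y left out for its 10 peaks in all. The 2 lists' intervals were apart on 10 chromosomes, on 4 with ETV1 higher and on 6 with GABPA higher. Shared peaks were most frequent on chromosome 20 as a share of the ETV1 list (9.09%) and on chromosome 5 as a share of the GABPA list (8.62%). On chromosome 22 none of the 89 ETV1 and 139 GABPA peaks was shared, although 1 near miss named above, with a gap of 21 bp, lies there.

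**Figure D4:**
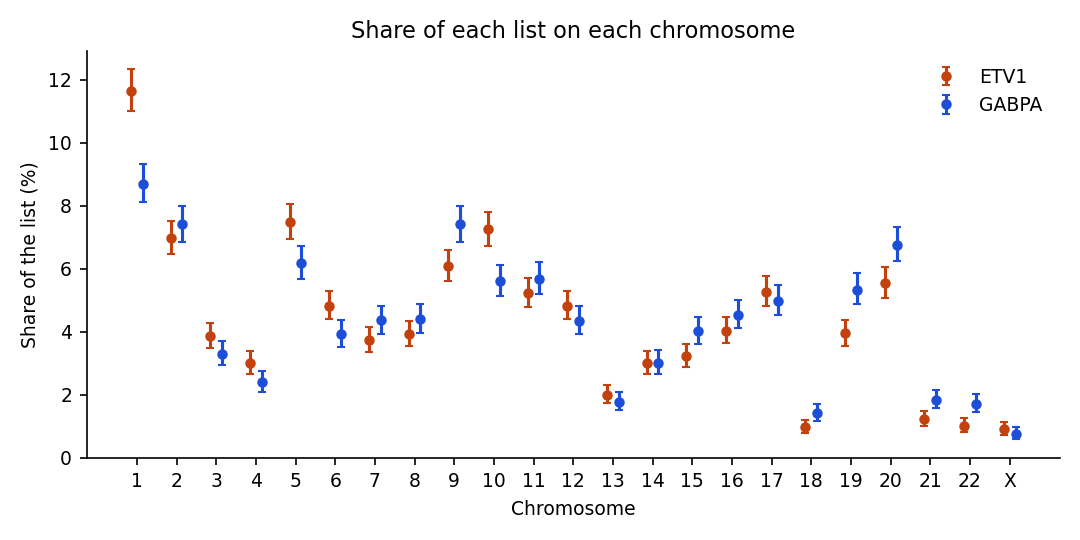
Percent of each list (vertical axis) on each chromosome (horizontal axis, Y left out), for ETV1 (red) and GABPA (blue), with Wilson 95% intervals. ETV1 stands higher on chromosomes 1, 5, 6 and 10, and GABPA on chromosomes 9, 15, 19, 20, 21 and 22, with intervals apart.

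GABPA peaks lay nearer the ends of chromosomes. The distance was measured from the last peak of any of the 6 lists on the same autosome, since no chromosome lengths of hg18 were used, and this measure was chosen after other results of these lists had been seen. Within 5 Mb of that last peak lay 15.6% of the GABPA peaks (14.9 to 16.4%) and 7.37% of the ETV1 peaks (6.84 to 7.94%), a ratio of ETV1 to GABPA of 0.472 (0.431 to 0.516). The values of the other lists were 8.82% for FLAG-ERG (7.73 to 10.1%), 7.38% for ETS1 (6.35 to 8.55%), 6.21% for JUND (5.40 to 7.15%) and 3.73% for ETV4 (3.12 to 4.46%). GABPA was thus the highest of the 6, and its interval lay apart from the other 5. Within 5 Mb of the first peak of the autosome the difference was smaller, 8.54% for GABPA (7.94 to 9.17%) and 6.42% for ETV1 (5.93 to 6.96%). That first peak need not lie at an end of the chromosome. Counted within 5 Mb of either outermost peak, shared peaks lay between the specific ones, at 18.9% (15.6 to 22.6%). The values were 13.5% for ETV1-specific (12.8 to 14.3%) and 24.5% for GABPA-specific peaks (23.6 to 25.5%).

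In windows of 1 Mb, GABPA reached higher densities. Its densest window held 41 peaks and the densest ETV1 window 27, and 31 windows held at least 20 GABPA peaks against 14 for ETV1. The densest 10% of its windows held 36.4% of the GABPA peaks, and the same part of the ETV1 windows 32.4% of the ETV1 peaks. ETV1 was spread over more windows, 2196 against 1923, of which 1653 were common to both. Of the 566 windows with at least 10 peaks of the pair, the GABPA share was past 2-fold of the ETV1 share in 110 (19.4%) and the ETV1 share past 2-fold of the GABPA share in 52 (9.19%), each with 0.5 added to the counts. This order turned round in windows of 5 Mb, where 9.84% leaned to GABPA and 15.2% to ETV1. At 5 Mb the minimum of 10 peaks also takes in sparser stretches. With a minimum of 20 peaks, 9 of 173 windows of 1 Mb (5.20%) leaned to ETV1 and 32 (18.5%) to GABPA. The 2-fold cut is coarse at small counts and not the same both ways. Windows of 1 Mb with 7 GABPA and 3 ETV1 peaks passed it, and those with 7 ETV1 and 3 GABPA peaks did not. They numbered 7 and 18 in that order. What part of the difference between 110 and 52 goes with this was not tested.

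Excess was taken as the difference of the 2 counts. The 5 windows with the largest excess of GABPA ended 1.53 to 6.43 Mb before the last peak of their chromosome. Of the 5 with the largest excess of ETV1, described next, 4 lay 28.15 to 50.93 Mb from the nearer outermost peak, and the fifth, at 6000001 to 7000000 of chromosome 12, lay 5.93 Mb from the first. Chromosome 9 had 37 GABPA and 10 ETV1 peaks at 136000001 to 137000000 and 26 and 6 at 137000001 to 138000000. Chromosome 8 had 34 and 12 at 143000001 to 144000000, chromosome 20 had 33 and 14 at 55000001 to 56000000, and chromosome 2 had 21 and 2 at 240000001 to 241000000. In these 5 windows 5 peaks were shared, of which 3 lay in the window of chromosome 20. They were 11.4% of the 44 ETV1 peaks there (4.95 to 24.0%) and, for the 151 GABPA peaks, 3.31% (1.42 to 7.52%). The choice of windows by their counts bears on these shares too.

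The largest excess of ETV1 in counts lay on chromosome 10, with 22 ETV1 and 4 GABPA peaks at 105000001 to 106000000. The adjoining window, 106000001 to 107000000, had 12 ETV1 peaks and was the one with the most ETV1 peaks where GABPA had 0. Its ratio of shares, 23.1, was the highest of the 5, and that of the former window was 4.62. Chromosome 1 had 27 ETV1 and 12 GABPA peaks at 199000001 to 200000000, with 20 FLAG-ERG and 16 ETS1 peaks in the same window. On chromosome 12, ETV1 had 24 and GABPA 11 peaks at 6000001 to 7000000, where the ratio of shares was 1.97 and so short of 2, and 16 and 4 at 51000001 to 52000000. Over the 5 windows 8 peaks were shared, 7.92% of the 101 ETV1 peaks (4.07 to 14.9%) and, for the 31 GABPA peaks, 25.8% (13.7 to 43.2%). The windows were chosen by these counts, so the shares are not set against those of the whole lists.

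Dense in both were chromosome 20, 60000001 to 61000000, with 25 ETV1 and 41 GABPA peaks, chromosome 9, 135000001 to 136000000, with 24 and 32, and chromosome 20, 61000001 to 62000000, with 23 and 41. Shared were 3, 6 and 1 of them in that order. Over these 3 windows, 13.9% of the 72 ETV1 peaks (7.72 to 23.7%) and, for the 114 GABPA peaks, 8.77% (4.84 to 15.4%) were shared. Windows dense in both lists hold more neighbours for each peak, so these shares are not set against those of the whole lists.

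**Figure D5:**
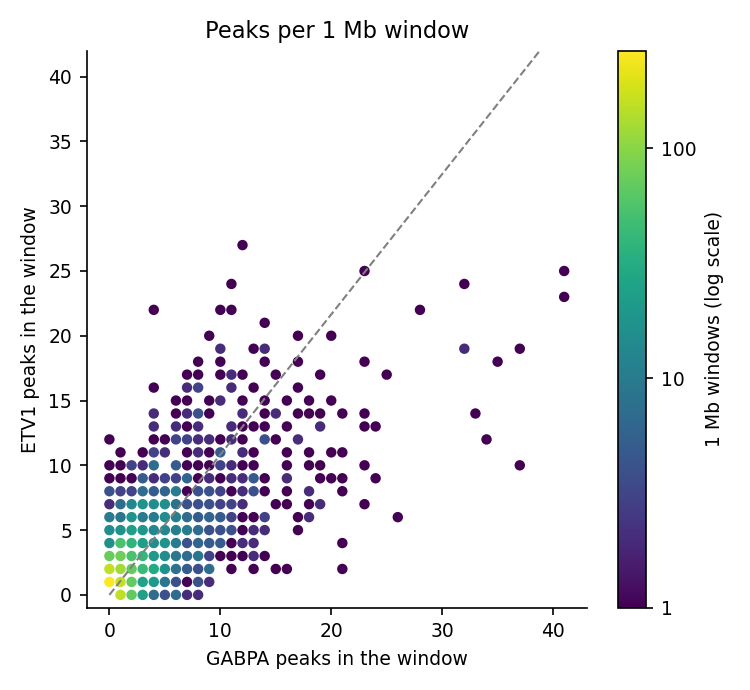
ETV1 peaks (vertical axis) against GABPA peaks (horizontal axis) per 1 Mb window, each point a pair of counts coloured by the number of windows that have it (log scale); the dashed line marks equal shares of both lists. GABPA reaches 41 peaks and ETV1 27, and both windows with 41 GABPA peaks lie below the line.

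Sharing varied along the GABPA file, whose row order the labels do not describe. In its first 20% of rows 11.1% of the GABPA peaks were shared with ETV1 (9.65 to 12.7%), and in the later parts of 20% the share was 3.90, 4.15, 4.77 and 5.70%. This was not particular to ETV1. Overlap with FLAG-ERG was 6.88% in the first part and 0.867 to 2.17% in the later ones, and with ETS1 5.70% and 1.43 to 2.11%. With ETV4 it was 0.867% and 0.186 to 0.620%, and with JUND 0.434% and 0.124 to 0.620%. Clustering within 10 kb rose along the same rows, from 17.2% in the first to 21.5% in the last part. In the ETV1 file the shared share moved between 4.46 and 6.30% and clustering between 14.9 and 15.5%, with no part standing apart. Without the first 20% of the GABPA rows, the shared part was 4.63% of the GABPA list (4.14 to 5.17%) and 3.42% of the ETV1 list (3.06 to 3.82%). The ratio of ETV1-specific to GABPA-specific shares was then 8.30 for FLAG-ERG (6.36 to 10.8), against 5.05 with all rows, and 3.21 for ETS1 (2.50 to 4.12), against 2.14. A shared ETV1 peak was then 3.51 times as often an ETS1 peak as a specific one (2.59 to 4.75), against 5.29 with all rows.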

How the data were processed

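ChIP-seq had been performed on 9 libraries of PC3 and RWPE-1 cells, and the 6 peak lists were analysed here; the inputs and the FLAG control were not analysed here. Groups were taken from the sample titles. They hold 8736 ETV1, 8070 GABPA, 2314 FLAG-ERG, 2180 ETS1, 3143 ETV4 and 2973 JUND regions of at most 501 bp. Each list was deposited as 3 bare columns (chromosome, start, end of a called region) with no score. The build is hg18, per the labels; the sources used here do not name the aligner, peak caller, control library or threshold. Thresholds and depth set how many regions a list holds, so list sizes are no measure of binding. Starts were read as counted from 0 and are printed from 1. Genes and sequences of hg18 were not used, so regions are named by position.

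Peaks were shared when they overlapped by 1 bp or more; other gaps were measured edge to edge. Shares carry Wilson 95% intervals, and ratios of shares a 95% interval on the log scale. No p-value is given, since each factor had 1 library and peaks are not replicates. Windows were fixed at 1 Mb, by peak midpoint. Named regions were those in the most lists, the 5 chains with the most peaks per list and the 5 closest near misses. Named windows were the 5 of largest excess each way and the 3 densest in both. Named chromosomes were the 3 highest and 3 lowest by ratio, and chromosome 19 was named after its value was seen. The lists, the comparison and the rules were chosen with earlier results of these data known. Overlap, gap and chain functions recovered all planted intervals in simulated data. Python 3.11.15, numpy 2.4.6, pandas 2.3.3, scipy 1.17.1 and matplotlib 3.10.9 were used.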

Additional observations from a re-analysis of the deposited data

How the results depend on the processing

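With 1 library per factor no library could be left out, and sequencing depth is unknown. No paired analysis was possible because each group had 1 library and no result came from a test. Of 110 values under alternative settings, 83 stayed within the first interval (counts within 1.5 times), 27 moved, and 0 ratios whose interval lay apart from 1 crossed it. The shared percent of ETV1 and of GABPA was 3.86 and 4.18 with a reciprocal overlap of 50%, 6.79 and 7.36 with a gap of up to 500 bp, 6.94 and 7.69 with loci merged over 10 kb, and 3.42 and 4.63 without the first 20% of GABPA rows, an alternative chosen after seeing the data. The near-miss percent of ETV1-specific and GABPA-specific peaks was 8.96 and 9.72 at 5 kb and 24.5 and 27.1 at 20 kb, and the clustered percent of ETV1 and GABPA 8.09 and 9.41 at 5 kb and 26.5 and 31.5 at 20 kb, moved by the limit itself. Of 60 ratios over the other lists, 53 stayed within the interval first found. The others, for which the cause was not tested, were these. With a reciprocal overlap of 50%, shared over specific GABPA peaks gave 22.95 for FLAG-ERG. With a gap of 500 bp, shared over specific ETV1 peaks gave 2.90 for FLAG-ERG, and ETV1-specific over GABPA-specific peaks 4.16 for JUND. Without the first GABPA rows, ETV1-specific over GABPA-specific gave 8.30 for FLAG-ERG and 3.21 for ETS1, and shared over specific ETV1 peaks 2.57 and 3.51. Windows with ETV1 past 2-fold were 15.2% at 5 Mb, 5.20% with at least 20 peaks and 6.23% with merged loci. Windows with GABPA past 2-fold were 9.84% at 5 Mb. The ratio at chromosome ends was 0.472 within 2 Mb and 0.513 within 10 Mb.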

Other observations

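Over the 2466 windows of 1 Mb with a peak of the pair, ETV1 and GABPA counts had a Spearman rho of 0.53, ETV1 and FLAG-ERG 0.57, ETV1 and ETS1 0.54, GABPA and ETS1 0.50, and GABPA and FLAG-ERG 0.46. With the PC3 lists the values were lower, 0.31 for ETV1 and 0.27 for GABPA with JUND, and 0.20 and 0.13 with ETV4. Windows are neighbours on a chromosome and share gene density and mappability, so these are descriptions. At the scale of 1 Mb, ETV1 and GABPA counts rose together, while 5.47% of the ETV1 peaks overlapped GABPA. Windows empty of both ETV1 and GABPA were left out. That choice bears on the rho of the pair otherwise than on those with other lists, so its value is not ranked against theirs.

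Windows with ETV1 and without GABPA numbered 543, and the reverse 270. The most GABPA peaks in a window without ETV1 were 8, and the most ETV1 peaks in a window without GABPA 12.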
